A study of Mus musculus with 9 samples.

Results

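This report describes the collagen genes of the mouse uterus after exposure to bisphenol B or bisphenol AF. The members are all genes whose symbol has the form Col, a type number, the letter a and a chain number, and 44 of the 34619 gene symbols in the expression tables matched. The uteri came from wild-type females of the outbred CD-1 (ICR) stock, bought at 7 to 8 weeks of age, acclimatised for a week and kept on corncob bedding with estrogen-free food. Each group was dosed by gavage for 28 days. The control group received pure corn oil, and the other groups received bisphenol B (BPB) or bisphenol AF (BPAF), both at a daily dose of 300 µg/kg body weight. There were 3 libraries per group, 9 in all, made from poly(A) RNA with a stranded kit. The labels number the libraries within a group without saying that each came from a separate mouse, and they give no estrous stage, so p-values measure only the spread between these samples.

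Collagens are secreted as trimers of chains wound into a helix. Fibrillar types I, III and V form the load-bearing fibres of the uterine stroma and myometrium, type VI forms beaded filaments around cells, type IV forms the sheet of basement membranes, and other types bind fibrils, anchor epithelia or span the cell membrane. Uterine collagen is known to be built up and removed with hormone state, pregnancy and the return to size after birth. BPB and BPAF are analogs of bisphenol A whose central bridge bears a methyl with an ethyl group in BPB, and trifluoromethyl groups in BPAF.

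The values are FPKM, read fragments scaled to a length per gene and to sequencing depth. The length recovered from the values was 16209 bases for Col1a2, whose longest annotated transcript has 5348. For Col8a1 it was 5108, equal to its longest transcript. Within a library, the levels, ranks and shares of different genes and the sizes of their ratios are therefore only roughly comparable. Between libraries the scale is not fixed: all FPKM summed to 279791 in control 2 and 495916 in control 3, with the exposed libraries between, and other scalings are among the alternatives. Read totals recovered from the step size of low values ranged from 12620192 in control 3 to 15616790 in BPB 2. The control 3 library stood apart. Mitochondrial genes took 34.12% of its summed FPKM against 14.01% and 14.11% in the other controls and 19.63% to 27.01% in the exposed libraries, and 30 of the 33 collagen genes that could be tested were lower there than in both other controls, where 55.8% of all tested genes were. The median difference of control 3 from the mean of controls 1 and 2 was -1.34 on the log2(FPKM + 1) scale for the collagen genes and -0.31 for all 13743 tested genes. Over all tested genes this median went from 0.2 in the fifth of genes with the lowest GC content to -0.55 in the fifth with the highest. The control 2 library was the highest of all 9 for 16 of the 33 collagen genes, where it was so for 11.4% of all tested genes. The counts of calls, the medians and some of the single-gene results are therefore also given without either control.

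Genes listed for uterine stroma were present in every library, with a mean of log2(FPKM + 1) over 7 genes of 3.56 to 4.57. Those listed for uterine epithelium had means of 4.83 to 6.48. A list of 12 genes of the urothelium, the lining of the bladder and urethra, had means of 0.90 to 1.29 in the controls, 0.77 in BPAF 2 and 0.78 in BPAF 3, and was high in BPB 1 (6.04), BPB 2 (6.64), BPB 3 (6.86) and BPAF 1 (5.81). Among its genes Krt20 was also at 25.18 and 22.23 FPKM in controls 1 and 2, and Krt5 at 71.86 in control 3. Krt18, of the uterine epithelium list, was highest in the BPB libraries and BPAF 1, at 294.9 to 518.0 FPKM against at most 246.9 elsewhere. The uroplakin gene Upk3a, which defines the urothelium, was listed at 0 FPKM in all 3 controls, BPAF 2 and BPAF 3, and at 335.1, 484.1, 546.9 and 323.4 FPKM in BPB 1, BPB 2, BPB 3 and BPAF 1. A list of 9 smooth muscle genes had means of 7.13 to 8.14 in controls, 8.58 to 9.41 in BPB and 5.90 to 7.27 in BPAF. Fibroblast genes, a list of 9, had means of 3.17 to 4.22 in controls, 4.06 to 4.37 in BPB and 3.74 to 4.68 in BPAF. In BPB 5 of them had a higher and 4 a lower mean than in control. Limma called 2, Pi16 and Entpd2, higher in BPB, where 2.55% of all tested genes were called. Ly6a was below all controls in all BPB libraries, with a difference of -1.48 that was not called. Of 4 tested skeletal muscle genes, Ckm and Myh2 were called higher in BPB, and the mean of 6 adipocyte genes ran from 0.07 in BPAF 2 to 4.71 in BPB 1. The part of these cell types in the collagen results was not tested. In these bulk samples, fewer cells of a type and less RNA per cell cannot be told apart.

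Promoter sequence is shown for the genes on which the results below turn: Col1a2 and Col3a1, fibrillar genes below all controls in all 6 exposed libraries, and Col17a1, the only collagen gene to pass the test in any comparison. Each line is the 150 bases before the annotated start of transcription, 5′ to 3′, on the gene's strand, from RefSeq on GRCm38.p6: chr6:4505468-4505617, plus strand, for Col1a2, chr1:45311388-45311537, plus strand, for Col3a1, and chr19:47692043-47692192, minus strand, for Col17a1. Capitals mark a CCAAT box (CCAAT or its reverse complement ATTGG) or a TATA box (TATAAA or TTTATA).
Col1a2: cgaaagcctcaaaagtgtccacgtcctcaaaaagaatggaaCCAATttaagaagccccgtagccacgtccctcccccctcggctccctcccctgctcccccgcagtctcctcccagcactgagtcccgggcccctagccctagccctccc
Col3a1: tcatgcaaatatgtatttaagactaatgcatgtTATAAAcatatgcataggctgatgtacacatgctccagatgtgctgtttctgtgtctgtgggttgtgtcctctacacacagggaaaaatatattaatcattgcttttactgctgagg
Col17a1: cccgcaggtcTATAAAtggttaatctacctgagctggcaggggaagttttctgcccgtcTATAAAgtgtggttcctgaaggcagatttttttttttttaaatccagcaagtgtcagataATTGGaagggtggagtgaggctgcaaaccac
The CCAAT box of Col1a2 begins 109 bases before the start, the TATA box of Col3a1 117 bases before it, and those of Col17a1 140 and 91 bases before it, with an inverted CCAAT box at 31 bases. The matches do not overlap one another. Of the 44 genes, 35 had an entry in the promoter table, with 38 promoters. A CCAAT box was found in 21.1% of these and in 24.5% of all 32851 promoters of the same length, a TATA box in 10.5% and 7.6%, and the GC box GGGCGG or CCGCCC in 50.0% and 28.6%. A match is a description of the letters and not of a bound site.

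In level, the means over the 9 libraries spanned from 0.00684 FPKM (Col9a1) to 345.0 FPKM (Col6a1). The 8 highest, Col6a1, Col1a1, Col3a1, Col6a2, Col1a2, Col4a1, Col6a4 and Col6a3, made up 83.2% of all collagen FPKM averaged over the libraries. The summed FPKM of the 44 genes was 3428.1 in control 1, 5694.5 in control 2 and 1077.1 in control 3, it was 1208.6, 998.0 and 1080.1 in the BPB libraries, and it was 734.4, 1150.6 and 910.2 in the BPAF libraries. Controls 1 and 2 were therefore above every other library, and control 3 lay among the exposed ones. As a share of all FPKM, the sums were 1.204%, 2.035% and 0.217% for the control libraries, 0.308%, 0.291% and 0.333% for BPB, and 0.194%, 0.334% and 0.255% for BPAF.

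The make-up of the pool differed too. Type IV chains made up 5.76% to 8.89% of collagen FPKM in the controls, 12.7% to 21.19% in BPB and 10.85% to 21.61% in BPAF, so the controls did not overlap with either exposed group. Fibrillar collagens held 40.05%, 52.87% and 66.44% in controls, 41.67% to 52.66% in BPB and 30.25% to 38.79% in BPAF. The BPAF libraries were all below the other 6. The multiplexins, Col15a1 and Col18a1, which lie in basement membrane zones and are cleaved to restin and endostatin, held 0.99% to 1.29% in controls and 2.14% to 5.8% in the exposed libraries. These are shares of 1 total, so they are not independent of one another and were not tested.

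**Figure D1:**
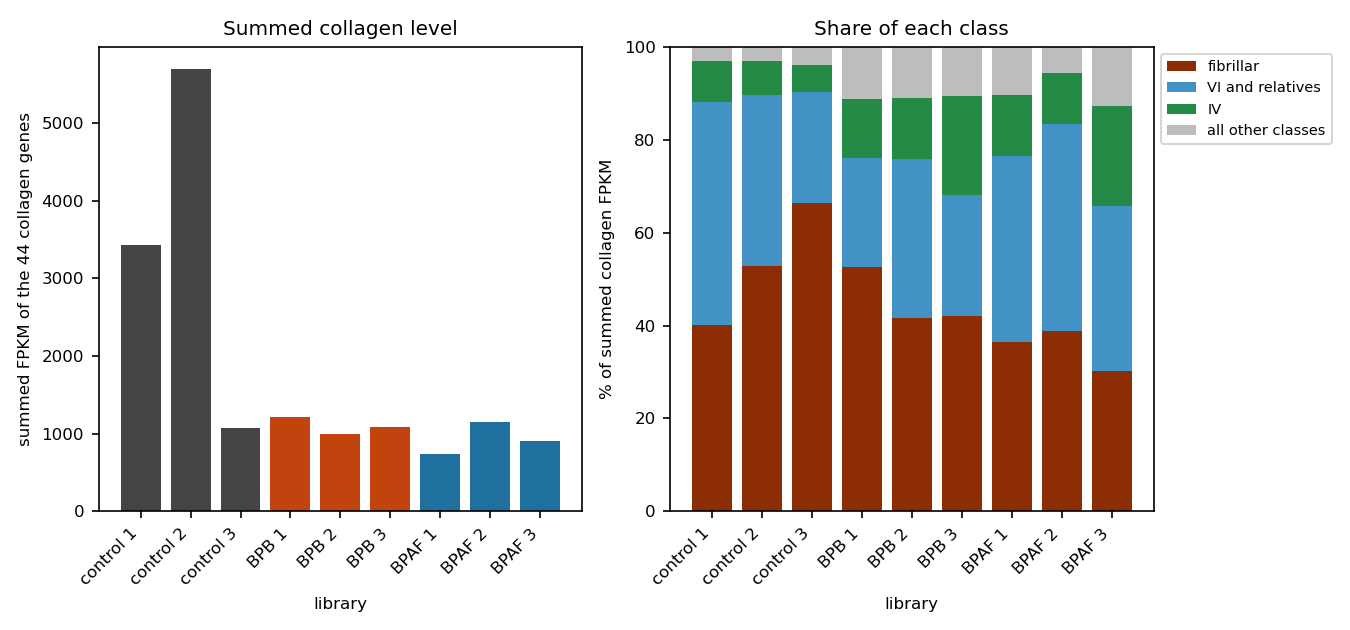
Left, summed FPKM of the 44 collagen genes in each library (grey, control; orange, BPB; blue, BPAF). Right, the % of that sum held by each class of collagen. Controls 1 (3428.1) and 2 (5694.5) stand above the other 7 libraries, which lie between 734.4 and 1208.6.

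Of the 44 genes, 33 reached 1 FPKM in at least 3 libraries and were tested with limma on log2(FPKM + 1), with Benjamini-Hochberg adjustment over all 13743 genes that passed this filter. A call below means an adjusted p under 0.05. Because the filter can be passed through the group in which a gene is high, the counts describe the genes that passed and not the whole family.

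BPB against control asked which collagen genes differ after exposure to BPB. A single collagen gene of 33 was called, Col17a1, which rose. Over all genes tested, 2.55% were called (282 higher, 2.05%, and 69 lower, 0.502%). The higher genes made up 80.3% of these calls, 68.3% of the calls under median-ratio scaling and 50.7% of the calls without control 3. The collagen genes' median difference was -0.27 and that of all tested genes 0.15, with 15 collagen genes above 0 and 18 below. At an unadjusted p under 0.05 there were 11 of 33 collagen genes, against 17.4% of all tested genes. The 3 BPB libraries did not overlap the 3 controls for 9 of the 33, which is 27.3% against 25.6% of all tested genes. They were above all controls for 5 (15.2%, against 19.5%) and below for 4 (12.1%, against 6.1%).

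BPAF against control asked the same for BPAF, with the same control libraries. No collagen gene was called by limma, where 0.0218% of all tested genes (3 genes) were. At an unadjusted p under 0.05 there were 9 of 33, against 12.8% of all tested genes. The collagen median was -0.65 and that of all tested genes 0.21, with 11 collagen genes above 0 and 22 below. The BPAF libraries did not overlap the controls for 4 of 33 (12.1%, against 16.8%), with 1 above (3.03%, against 14.3%) and 3 below (9.09%, against 2.5%). In the joint limma test of all 3 groups, 0 collagen genes were called against 0.844% of all tested genes. At an unadjusted p under 0.05 there were 14 of 33, against 15.1%. The smallest adjusted p values of the joint test were 0.0695 (Col17a1) and 0.0762 (Col1a2).

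Leaving out 1 control changed which genes were called. Without control 3 limma called 3 collagen genes in BPB against control (0.517% of all tested genes), Col6a1, Col6a2 and Col4a3, all lower, and Col17a1 had an adjusted p of 0.0726. In BPAF against control it called Col6a1 and Col6a2 (0.0728% of all tested genes), both lower. The collagen medians then were -0.82 for BPB and -1.27 for BPAF. Leaving out control 2 instead turned the BPB median to 0.13 and took the BPAF median to -0.23, and Col17a1 then had an adjusted p of 0.088 in BPB.

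**Figure D2:**
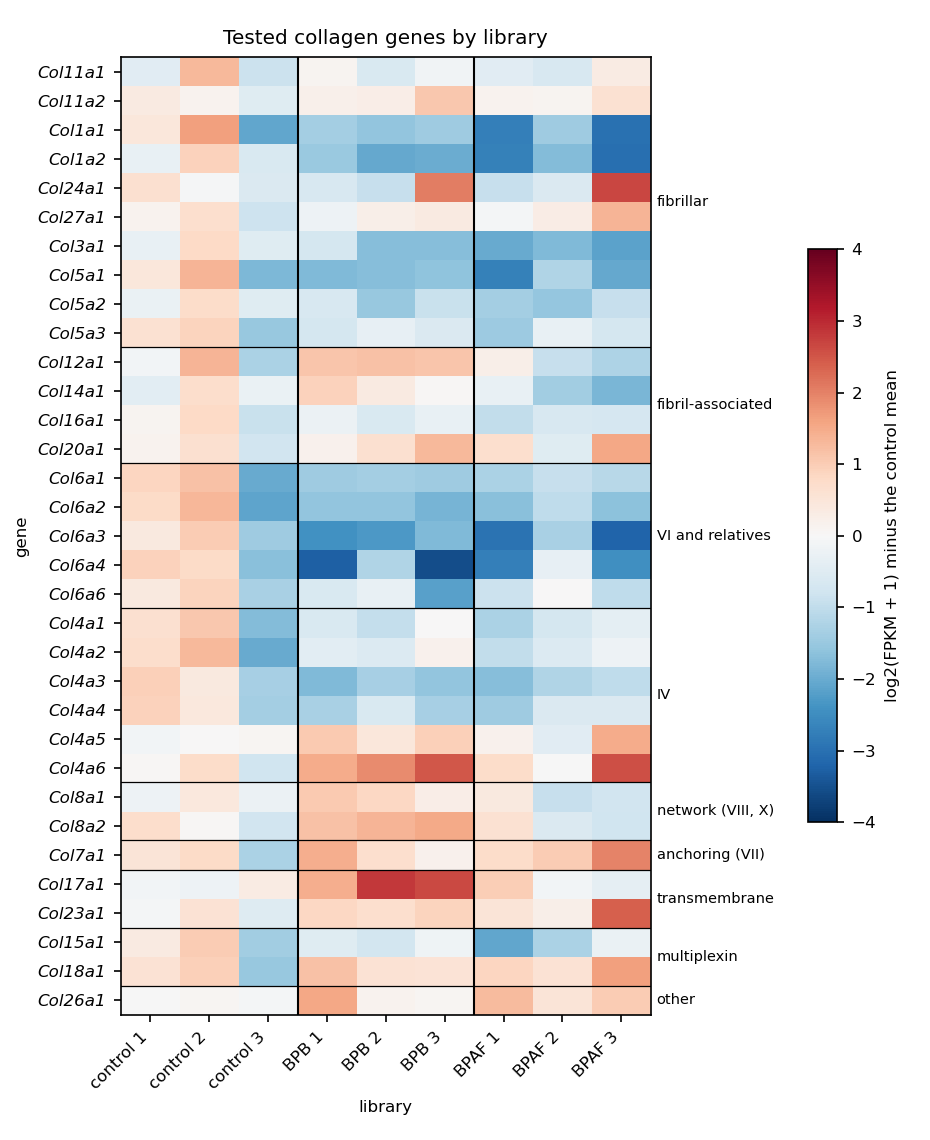
Difference of log2(FPKM + 1) from the mean of the 3 controls for the 33 tested collagen genes (rows, grouped by class) in each of the 9 libraries (columns). Blue is lower and red higher. Col1a1, Col1a2, Col3a1, Col5a1, Col6a1, Col6a2 and Col6a3 are blue in all exposed libraries and in control 3, while Col17a1, Col4a6 and Col8a2 are red in the BPB libraries.

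Among the fibrillar collagens, 7 of the 10 tested had a lower mean log2 level in BPB and 7 of 10 in BPAF than in control, with none called in either. Their median difference was -0.78 for BPB and -1.05 for BPAF. Type I collagen is the main fibre-forming collagen and is built from Col1a1 and Col1a2 chains. Col1a2 was at 243.3, 568.4 and 199.7 FPKM in the controls, 107.7, 72.96 and 75.15 in BPB, and 45.77, 89.97 and 36.45 in BPAF. Every exposed library lay below every control. The limma difference of Col1a2 was -1.84 (SE 0.46, adjusted p = 0.0735) for BPB and -2.48 (SE 0.46, adjusted p = 0.188) for BPAF, so neither passed. Under median-ratio scaling the BPB difference passed, at -2.03 with an adjusted p of 0.0463, the smallest of a range of 0.0463 to 0.245 over the alternatives.

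Col1a1, the partner chain, was at 565.3, 1289 and 96.03 FPKM in the controls, 159.6, 138.8 and 153.2 in BPB, and 61.07, 151.8 and 51.44 in BPAF. Controls 1 and 2 were far above the exposed libraries, but control 3 lay below all BPB libraries and BPAF 2, so the groups overlapped. The differences were -1.45 (SE 0.82, adjusted p = 0.403) for BPB and -2.38 (SE 0.82, adjusted p = 0.309) for BPAF. Without control 3 the BPB difference was -2.50 and the BPAF difference -3.43, with adjusted p values of 0.0726 and 0.105. Without control 2 they were -0.63 and -1.56, with adjusted p values of 0.669 and 0.367. The adjusted p ranged over the alternatives from 0.0623 to 0.669 for BPB and from 0.105 to 0.706 for BPAF.

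Col3a1, the chain of type III collagen, which is rich in distensible organs, was at 398.4, 849.8 and 355.6 FPKM in controls, 303.2, 151.3 and 152.6 in BPB, and 122.5, 143.0 and 110.9 in BPAF. All exposed libraries were below all controls, and the BPAF libraries were below the BPB libraries as well. The difference was -1.36 (SE 0.41, adjusted p = 0.128) for BPB and -1.98 (SE 0.41, adjusted p = 0.228) for BPAF. Its neighbour on chromosome 1, Col5a2, encodes a chain of type V collagen, which sits in the core of type I fibrils and helps set their width. Col5a2 was at 46.16, 94.02 and 40.05 FPKM in controls, 35.14, 19.08 and 29.49 in BPB, and 21.02, 18.62 and 28.99 in BPAF. Again no exposed library reached a control, with differences of -1.02 (adjusted p = 0.193) and -1.28 (adjusted p = 0.301).

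The partner of Col5a2 in type V, Col5a1, was at 19.1 FPKM in control 3 and at 94.68 and 177.0 in the other controls. Its exposed levels were 9.65 to 29.36, overlapping control 3. Col5a3 had a similar layout, with 3.391 to 22.42 FPKM in controls and 3.562 to 9.12 in the exposed libraries. The minor fibrillar genes did not share this layout. Col24a1 was at 0.6576 to 2.867 FPKM in controls and below 0.7 in 4 exposed libraries, but at 9.252 in BPB 3 and 14.93 in BPAF 3. Col27a1, Col11a1 and Col11a2 stayed under 7 FPKM in every library, and their differences ranged from -0.25 to 0.52 over both comparisons. Col2a1, the cartilage collagen, was at 0 in 7 of 9 libraries and peaked at 0.06194 FPKM.

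**Figure D3:**
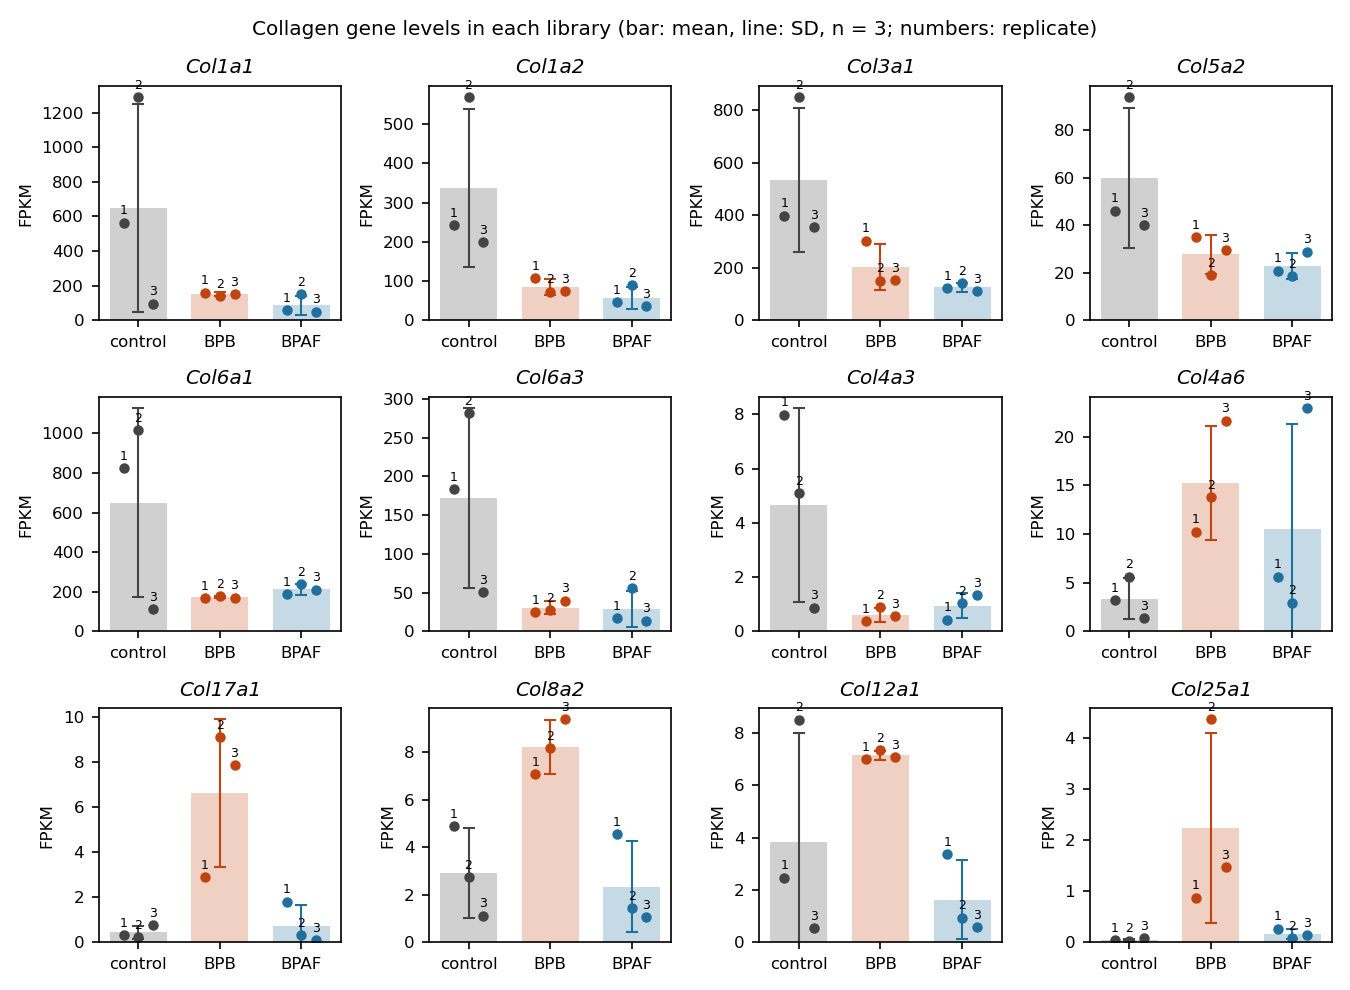
FPKM of 12 collagen genes in each library. Points are libraries, numbered by replicate, bars are group means and lines are SD (n = 3); each panel has its own axis from 0. The exposed points lie under all control points for Col1a2, Col3a1 and Col5a2, while control 3 falls among or below the exposed points for Col1a1, Col6a1 and Col4a3.

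Type VI collagen filaments are assembled from alpha1, alpha2 and one longer chain, which can be alpha3 or one of the products of Col6a4, Col6a5 and Col6a6. All 5 tested genes of the group had lower means in both exposed groups. None was called with all libraries, and the median difference was -1.67 for BPB and -1.44 for BPAF. Col6a1, which had the highest mean over the 9 libraries, set by controls 1 and 2, was at 823.0, 1017 and 112.0 FPKM in controls, 167.7, 178.3 and 170.4 in BPB, and 186.8, 238.4 and 211.3 in BPAF. The exposed values were tight, and control 3 was the lowest library of all. The differences were -1.40 (SE 0.70, adjusted p = 0.346) for BPB and -1.10 (SE 0.70, adjusted p = 0.523) for BPAF. Without control 3 they were -2.40 (adjusted p = 0.0295) and -2.11 (adjusted p = 0.0444), and without control 2 they were -0.82 and -0.52 (adjusted p = 0.557 and 0.733). The adjusted p ranged from 0.00433 to 0.617 and from 0.0444 to 0.9 over the alternatives.

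Col6a2, which encodes the alpha2 chain and lies next to Col6a1 on chromosome 10, was at 377.6, 558.8 and 50.87 FPKM in controls, 72.99, 73.97 and 59.98 in BPB, and 68.72, 108.6 and 70.32 in BPAF. Control 3 was again the lowest library. The differences were -1.67 (SE 0.74, adjusted p = 0.285) for BPB and -1.44 (SE 0.74, adjusted p = 0.441) for BPAF. Without control 3, limma gave -2.72 (adjusted p = 0.0319) and -2.49 (adjusted p = 0.0494), and without control 2 it gave -1.01 and -0.78 (adjusted p = 0.474 and 0.607). The ranges of adjusted p over the alternatives were 0.00787 to 0.565 and 0.0494 to 0.842.

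For Col6a3, the long chain of the common type VI trimer, the controls were at 183.6, 282.0 and 51.05 FPKM, BPB at 25.26, 27.13 and 39.81, and BPAF at 16.98, 56.11 and 14.03. All BPB libraries were below all controls, and BPAF 2 was above control 3. The differences were -2.16 (SE 0.66, adjusted p = 0.131) and -2.49 (SE 0.66, adjusted p = 0.284). Col6a4, an alternative long chain, was at 253.5, 227.0 and 40.78 FPKM in controls, 13.07, 57.31 and 10.56 in BPB, and 19.11, 105.3 and 23.74 in BPAF. The second library of each exposed group was well above the other libraries of its group. Its differences were -2.67 (SE 0.90, adjusted p = 0.166) for BPB, the lowest of any tested collagen gene in that comparison, and -1.84 (SE 0.90, adjusted p = 0.424) for BPAF. Col6a6 ranged from 1.509 to 10.56 FPKM in controls and from 0.3641 to 5.21 in the exposed libraries. Col6a5, not tested, did not exceed 1.109 FPKM.

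The type IV collagen genes differed in direction among themselves, with 4 of 6 below 0 in both comparisons, none called and a median difference of -0.40 for BPB and -0.68 for BPAF. Basement membranes in general contain chains from Col4a1 and Col4a2, while Col4a3, Col4a4, Col4a5 and Col4a6 serve particular membranes, among them those of kidney and lung and of smooth muscle. Col4a1 was at 168.0, 231.2 and 32.11 FPKM in controls, 70.25, 55.04 and 109.9 in BPB, and 44.8, 66.54 and 81.44 in BPAF. The exposed values lay between control 3 and the other controls. Its differences were -0.52 (adjusted p = 0.751) and -0.78 (adjusted p = 0.632), and the BPB value turned to 0.03 when control 2 was left out. Col4a2 had the same layout, from 15.49 to 161.7 FPKM in controls and 32.38 to 73.84 in the exposed libraries.

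Col4a3 was at 7.979, 5.102 and 0.8797 FPKM in controls, 0.3835, 0.8813 and 0.5542 in BPB, and 0.4364, 1.05 and 1.338 in BPAF. These values correspond to 1312, 771 and 121 reads in the controls, 61, 150 and 81 in BPB, and 61, 167 and 195 in BPAF. Controls 1 and 2 were well above all other libraries. With all libraries the differences were -1.56 (SE 0.50, adjusted p = 0.152) for BPB and -1.30 (SE 0.50, adjusted p = 0.348) for BPAF. Without control 3 the BPB difference was -2.22 with an adjusted p of 0.0373, in a range of 0.00962 to 0.371 over the alternatives. The BPAF difference was then -1.96 (adjusted p = 0.107). Without control 2 the differences were -1.37 for BPB and -1.11 for BPAF (adjusted p = 0.257 and 0.402). Col4a4, its partner chain, was at 7.441, 4.922 and 0.7195 FPKM in controls and at 0.6579 to 1.934 in the exposed libraries.

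Col4a5 and Col4a6 lay in the opposite direction. Col4a6, which pairs with Col4a5 in basement membranes of smooth muscle and some epithelia, was at 3.183, 5.613 and 1.33 FPKM in controls, 10.25, 13.78 and 21.64 in BPB, and 5.603, 2.965 and 22.9 in BPAF. The BPB libraries were all above the controls, and of BPAF only library BPAF 3 was. Its difference was 1.96 (SE 0.64, adjusted p = 0.154) for BPB and 1.09 (SE 0.64, adjusted p = 0.486) for BPAF. Col4a5 was at 10.02 to 11.5 FPKM in controls, 15.06 to 23.68 in BPB, and 12.27, 7.708 and 32.13 in BPAF, with differences of 0.82 (adjusted p = 0.37) and 0.40 (adjusted p = 0.718). The smooth muscle list was also above all controls in the 3 BPB libraries, but it was lowest of all in BPAF 3, the library with the highest Col4a5 and Col4a6. The part of muscle content in these values was not tested.

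**Figure D4:**
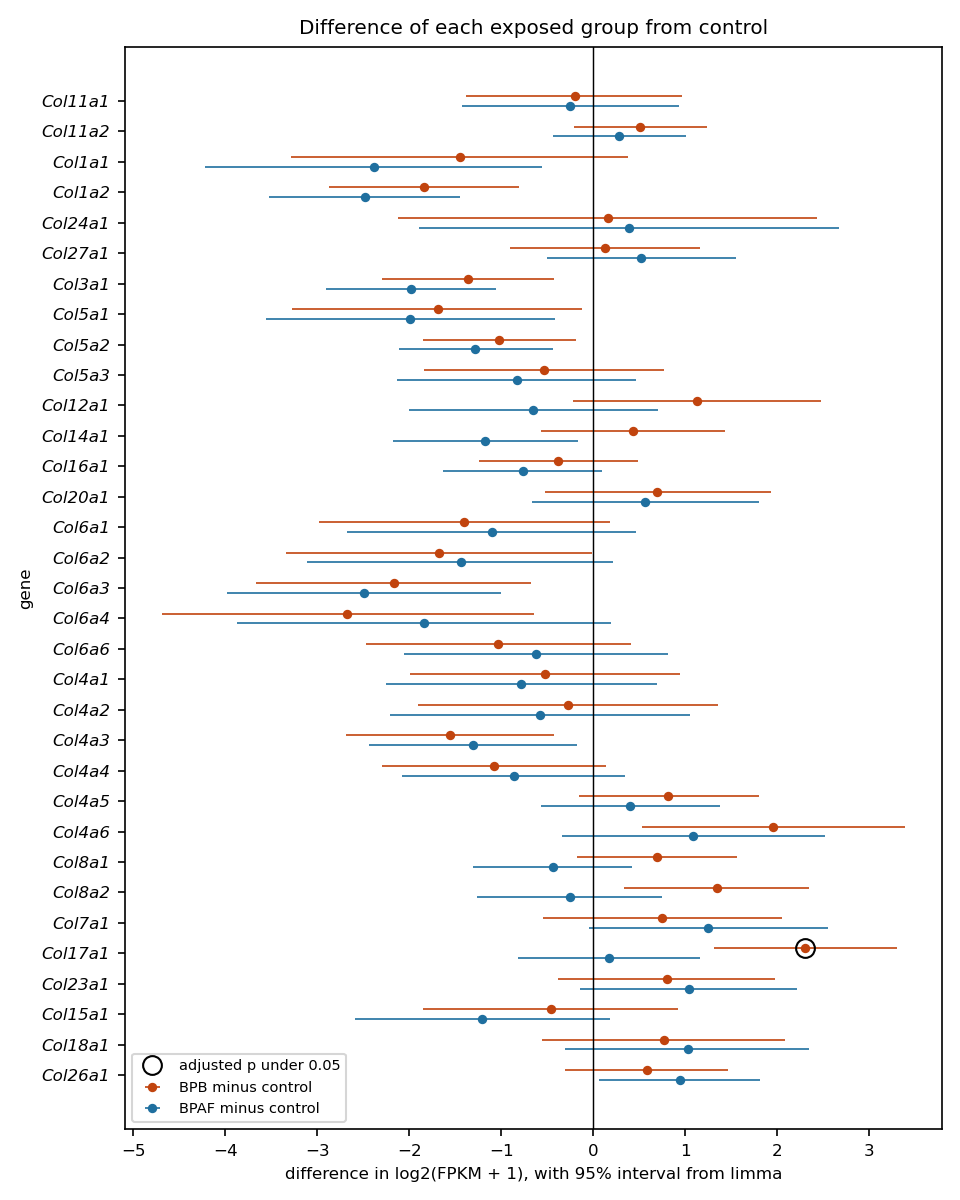
Difference of each exposed group from control in log2(FPKM + 1), with its 95% interval from limma, for the 33 tested collagen genes (orange, BPB; blue, BPAF; the ring marks an adjusted p under 0.05). Both sets use the same 3 controls. Col17a1 in BPB (2.30) carries the ring, and Col1a2, Col3a1 and Col6a3 have intervals below 0 in both.

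Col17a1 encodes a transmembrane collagen of hemidesmosomes, the junctions that fix basal cells of stratified epithelia to the basement membrane. It was at 0.3262, 0.2291 and 0.7675 FPKM in controls, 2.894, 9.079 and 7.85 in BPB, and 1.808, 0.3154 and 0.1068 in BPAF. In reads these values are 31, 20 and 61, then 266, 893 and 663, then 146, 29 and 9. All BPB libraries were above all controls, and of the BPAF libraries only BPAF 1 was. The group means were 0.441 ± 0.287 FPKM in control and 6.61 ± 3.28 in BPB (SD, n = 3). The difference for BPB was 2.30 (SE 0.44), with a 95% interval of 1.31 to 3.30 and an adjusted p from limma of 0.0353, rank 184 of the tested genes. Col17a1 reached 1 FPKM only in the BPB libraries and BPAF 1, so it passed the filter through the group in which it is high, and with no filter its adjusted p was 0.0657. For BPAF it was 0.17 (SE 0.44, adjusted p = 0.896).

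The 4 libraries with the highest Col17a1, the BPB libraries and BPAF 1, are the 4 with high urothelial genes. In BPB against control 10 of the 12 urothelial genes were called higher and the list's median difference was 5.31, and in BPAF against control 0 of 12 were called and 0 had an unadjusted p under 0.05, with a median of 1.33. Krt5, a keratin of basal epithelial cells, was at 0.7263, 0.9551 and 71.86 FPKM in controls 1, 2 and 3, and control 3 was also the control with the highest Col17a1. The list did not move as one there. Among the controls, Krt15, Trp63, Grhl3, Upk2 and Snx31 were also highest in control 3. Upk1a, Upk1b, Gata3 and Krt20 were lowest in it. The part of urothelial RNA in the Col17a1 result was not tested. The call rested on single libraries: leaving out BPB 1 it stayed (2.73, adjusted p = 0.028), and leaving out any control or either other BPB library ended it. The difference was above 0 in every alternative, from 2.04 to 3.90, with adjusted p values of 0.0244 to 0.148.

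Among the other transmembrane collagens, Col23a1 was at 0.146 to 1.474 FPKM in controls, 1.651 to 2.085 in BPB and 1.345, 0.929 and 7.649 in BPAF. Its differences were 0.80 (adjusted p = 0.485) and 1.04 (adjusted p = 0.433). Col25a1, chosen here after its values were seen, missed the filter but was at 0.03814, 0.03632 and 0.0798 FPKM in controls, 0.8772, 4.376 and 1.475 in BPB, and 0.2692, 0.08376 and 0.1398 in BPAF, from 8, 7 and 14 reads, then 178, 950 and 275, then 48, 17 and 26. The BPB libraries were the highest and BPAF 1 came next, the same 4 libraries as for Col17a1. Col13a1 stayed under 1 FPKM throughout.

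The network-forming type VIII chains Col8a1 and Col8a2, which occur in vessel walls and under endothelia, had their highest group means in BPB. Col8a2 was at 4.905, 2.746 and 1.119 FPKM in controls, 7.093, 8.177 and 9.395 in BPB, and 4.553, 1.436 and 1.055 in BPAF. BPB was above both other groups in every library. The difference was 1.35 (SE 0.45, adjusted p = 0.16) for BPB and -0.25 (SE 0.45, adjusted p = 0.84) for BPAF. Col8a1 was at 1.336, 2.584 and 1.272 FPKM in controls, 4.48, 3.698 and 2.175 in BPB, and 2.473, 0.4023 and 0.5562 in BPAF. For Col8a1 the groups overlapped, with BPB 3 below control 2 and BPAF 1. Col10a1, the collagen of growth-plate cartilage, reached 0.557 FPKM in control 3 and at most 0.1059 elsewhere.

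Of the collagens that decorate fibrils, Col12a1 was at 2.48, 8.517 and 0.5554 FPKM in controls, 7.002, 7.351 and 7.09 in BPB, and 3.372, 0.9486 and 0.579 in BPAF. The BPB libraries agreed closely, inside the wide range of the controls. Col14a1 was at 8.021, 18.43 and 8.951 FPKM in controls, 21.61, 14.39 and 11.33 in BPB, and 8.799, 3.6 and 2.419 in BPAF. Against control, the differences of Col12a1 were 1.13 (adjusted p = 0.375) for BPB and -0.65 (adjusted p = 0.671) for BPAF, and those of Col14a1 were 0.43 (adjusted p = 0.687) and -1.17 (adjusted p = 0.345). Without control 2 those of Col12a1 were 1.81 (adjusted p = 0.11) and 0.03 (adjusted p = 0.98). Col16a1 ranged from 15.24 to 54.45 FPKM and Col20a1 from 0.7437 to 7.669, with no group apart from control. Col9a1, Col9a3, Col19a1 and Col22a1 were not tested and peaked at 0.04858, 0.8986, 0.2532 and 1.484 FPKM. Col9a2, singled out after its values were seen, was at 4.057 FPKM in BPB 1 and at no more than 0.8608 elsewhere, yet all exposed libraries were above the highest control (0.03634, or 2 reads).

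Col7a1, the anchoring fibril collagen that ties epithelial basement membranes to the stroma, ranged from 1.111 to 7.69 FPKM in controls and 4.701 to 19.39 in the exposed libraries, with differences of 0.75 (adjusted p = 0.559) and 1.25 (adjusted p = 0.405). Col15a1 was at 7.625 to 44.66 FPKM in controls and 4.36 to 19.1 in the exposed libraries. Col18a1 was at 3.032 to 21.16 in controls and 16.0 to 35.13 in the exposed libraries. Col26a1 was at 0.06156, 0.1273 and 0.007359 FPKM in controls (10, 19 and 1 reads), 2.119, 0.1665 and 0.1247 in BPB, and 1.579, 0.5344 and 1.146 in BPAF. It was the 1 tested collagen gene above all controls in all BPAF libraries, with a difference of 0.94 (SE 0.39, adjusted p = 0.37). Col26a1 reached 1 FPKM only in BPB 1, BPAF 1 and BPAF 3, so it passed the filter through exposed libraries. The untested Col25a1 and Col9a2 were also above all controls in all BPAF libraries. Col28a1, not tested, stayed under 1 FPKM.

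BPAF against BPB compared the analogs directly at the same mass dose and time. No collagen gene of 33 was called by limma, against 0.24% of all tested genes (33 genes, all lower in BPAF), and 5 of 33 had an unadjusted p under 0.05, against 6.75%. The median difference was -0.27 for the collagen genes and 0.07 for all tested genes. The libraries did not overlap for 7 of 33 (21.2%, against 13.0%), with Col6a1 higher in BPAF (3.03%, against 6.54%) and Col3a1, Col8a2, Col12a1, Col14a1, Col16a1 and Col17a1 lower (18.2%, against 6.41%).

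The 5 genes with the smallest p were all lower in BPAF. Col17a1 differed by -2.14 (95% interval -3.13 to -1.14, adjusted p = 0.127), Col8a2 by -1.60 (-2.60 to -0.59, adjusted p = 0.305) and Col14a1 by -1.60 (-2.61 to -0.59, adjusted p = 0.306). Col8a1 differed by -1.14 (-2.01 to -0.28, adjusted p = 0.456) and Col12a1 by -1.78 (-3.13 to -0.42, adjusted p = 0.462). These intervals are for single genes and exclude 0, but none of the 5 held after adjustment over all tested genes. For the abundant genes the intervals included 0: Col1a2 differed by -0.65 (-1.69 to 0.39), Col3a1 by -0.61 (-1.54 to 0.32), Col6a1 by 0.29 (-1.28 to 1.87) and Col6a3 by -0.32 (-1.81 to 1.17). These intervals allow differences of more than 1 log2 unit, so the compounds are not shown to act alike on them.

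Leaving out BPAF 1, the BPAF library with high urothelial genes, limma called 1 collagen gene in BPAF against BPB, Col17a1 (-2.54, adjusted p = 0.0222), with 1.7% of all tested genes called. The adjusted p of this difference ranged from 0.0222 to 0.544 over the alternatives. With replicate number as a block, Col17a1 had an adjusted p of 0.387, and 0 genes of all those tested were called. Without both control 3 and BPAF 1, an alternative chosen after seeing the data, 2 collagen genes were called, Col17a1 and Col8a2, against 1.65% of all tested genes. That fit called 7 collagen genes in BPB against control, against 2.52% of all tested genes: Col6a1, Col6a2, Col5a1, Col5a3, Col4a3 and Col4a4 lower and Col17a1 higher.

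Ratios between collagen genes are free of a library's overall scale. Of 11 ratios computed, those of Col4a3 to Col4a4 and of Col4a3 to Col4a1 set all exposed libraries apart from all controls, and they were singled out after the values were seen, so they are given with no test. The ratio of Col4a3 to Col4a4 was 1.07, 1.04 and 1.22 in controls, 0.48, 0.472 and 0.717 in BPB, and 0.663, 0.544 and 0.692 in BPAF. All exposed libraries were below all controls, control 3 included. The ratio of Col4a3 to Col4a1 was 0.0475, 0.0221 and 0.0274 in controls, 0.00505 to 0.016 in BPB and 0.00974 to 0.0164 in BPAF. In the RefSeq annotation of GRCm38.p6 Col4a3 and Col4a4 lie head to head on chromosome 1 and share 114 bases at their starts, as Col4a1 and Col4a2 share 85 on chromosome 8, and no source used here says whether reads were counted by strand, so reads from the shared stretch may not be told apart.

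The ratio of Col1a1 to Col1a2 was 2.32 and 2.27 in controls 1 and 2, 0.481 in control 3, 1.48 to 2.04 in BPB and 1.33 to 1.69 in BPAF. Control 3 was far below all others, and the exposed libraries lay between. The chains have a GC content of 58.9% and 55.7% in their longest transcripts. The ratio of Col6a1 to Col6a3 was 4.48, 3.61 and 2.19 in controls, 6.64, 6.57 and 4.28 in BPB, and 11.0, 4.25 and 15.1 in BPAF. The highest values, in BPAF 1 and BPAF 3, came from low Col6a3. The ratio of Col4a5 to Col4a6 was 3.15, 1.96 and 8.65 in controls and 1.02 to 2.6 in the exposed libraries. Col4a1 to Col4a2 stayed within 1.25 to 1.55 in every library except control 3, at 2.07.

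**Figure D5:**
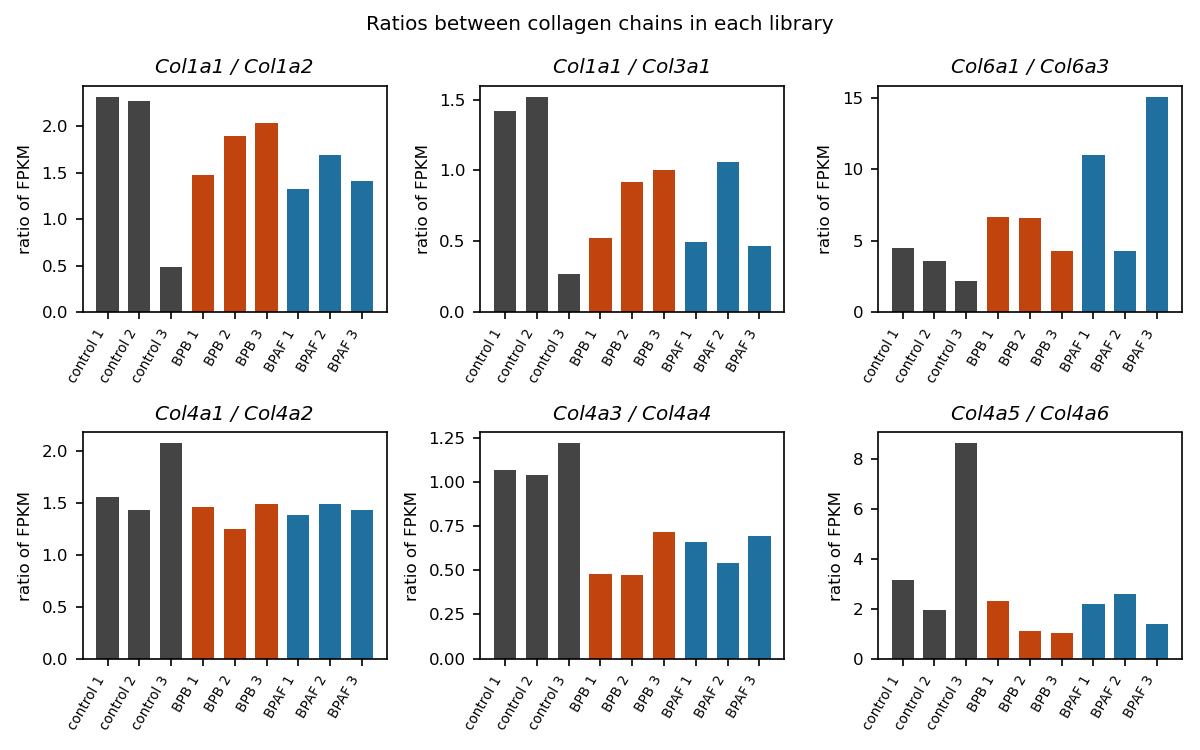
Ratio of FPKM between pairs of collagen chains in each library (grey, control; orange, BPB; blue, BPAF; bars start at 0). The ratio of Col4a3 to Col4a4 is 1.04 to 1.22 in controls and 0.472 to 0.717 in the exposed libraries, and the ratio of Col1a1 to Col1a2 is 0.481 in control 3.

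Collagen chains must be hydroxylated, folded, exported, trimmed and cross-linked before they form fibres. The lists held 60 tested genes with such roles or in fibril assembly, collagen receptors and uptake, and collagen cleavage. Of these, 2 were called in BPB against control, both lower: Lox and Plod2. Over all tested genes 2.55% were called, and at an unadjusted p under 0.05 there were 11 of the 60, against 17.4%. None was called by limma in BPAF against control or in BPAF against BPB, where at an unadjusted p under 0.05 there were 11, against 12.8% of all tested genes, and 4, against 6.75%. The median difference of the 60 genes was -0.28 for BPB, -0.36 for BPAF and -0.13 for BPAF against BPB. In the joint test the same 2 were called.

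Lox encodes lysyl oxidase, the enzyme that starts the cross-links between collagen and elastin chains. It was at 52.25, 73.69 and 58.99 FPKM in controls, 6.405, 4.217 and 10.08 in BPB, and 16.09, 12.98 and 26.22 in BPAF. Control 3 lay between the other controls, every exposed library was below every control, and every BPB library was below every BPAF library. Lox fell by 3.04 on the log2(FPKM + 1) scale in BPB (SE 0.35, limma adjusted p = 0.0105). The difference for BPAF was -1.73 (SE 0.35, adjusted p = 0.206), and BPAF against BPB differed by 1.31 (SE 0.35, adjusted p = 0.28). Of the other cross-linking genes, Loxl2 differed by -1.31 (adjusted p = 0.349) in BPB and -1.45 (adjusted p = 0.403) in BPAF.

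Plod2, a lysyl hydroxylase that acts on the ends of collagen chains and so sets which cross-links form, was at 45.28, 46.56 and 35.06 FPKM in controls, 15.08, 10.96 and 10.06 in BPB, and 12.14, 20.91 and 12.63 in BPAF. No exposed library reached a control. Plod2 fell by 1.74 in BPB (SE 0.28, limma adjusted p = 0.0223), and its difference for BPAF was -1.45 (SE 0.28, adjusted p = 0.19). Leaving out control 1 or BPB 2 ended both calls, and leaving out control 2 or BPB 3 ended that of Plod2. P4ha3, a prolyl hydroxylase subunit, was at 6.722, 5.55 and 6.394 FPKM in controls, 0.9818, 1.652 and 2.68 in BPB, and 0.6876, 3.05 and 0.0989 in BPAF, with differences of -1.42 (adjusted p = 0.135) and -1.88 (adjusted p = 0.23).

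Adamts2, the protease that removes the amino-terminal propeptide of procollagens, was at 43.51, 47.46 and 9.425 FPKM in controls, 5.851 to 6.8 in BPB and 4.407 to 7.366 in BPAF. All exposed libraries were below all controls. The differences were -1.97 (adjusted p = 0.0848) and -2.03 (adjusted p = 0.284), and both passed without control 3. Adamts3, a protease of the same kind, was at 2.224, 4.306 and 0.586 FPKM in controls and 0.1606 to 1.157 in the exposed libraries, with differences of -0.94 (adjusted p = 0.289) and -1.04 (adjusted p = 0.359).

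Of 11 tested fibril assembly genes, 5 had a higher and 6 a lower mean in BPB than in control. In BPAF 2 were higher and 9 lower, with none called in either. Ogn (-2.08 for BPB, -2.71 for BPAF) and Sparc (-1.12 and -1.66) were below all controls in all exposed libraries. The genes of the fibril-binding leucine-rich proteins Fmod and Prelp were higher in every BPB library than in any other. Fmod was at 0.9437, 1.343 and 1.497 FPKM in controls, 3.208, 3.594 and 3.308 in BPB, and 1.132, 0.4689 and 0.4504 in BPAF. Its difference was 0.96 (adjusted p = 0.0658) for BPB against control and -1.40 (SE 0.23, adjusted p = 0.0583) for BPAF against BPB. Prelp was at 8.513, 10.34 and 3.071 FPKM in controls, 16.16, 23.66 and 27.77 in BPB, and 9.031, 3.766 and 8.457 in BPAF. It differed by 1.60 (adjusted p = 0.0961) for BPB and by -1.58 (adjusted p = 0.303) for BPAF against BPB.

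For export, Sec24d, a coat protein of the vesicles that carry procollagen, was at 19.95, 28.03 and 14.7 FPKM in controls and 8.429 to 11.29 in the exposed libraries, with differences of -0.92 (adjusted p = 0.119) and -0.93 (adjusted p = 0.301). Mia2, which helps load bulky cargo into these vesicles, differed by -1.10 (adjusted p = 0.322) and -0.30 (adjusted p = 0.84). The collagen receptors Itga1 and Itga2 and the proteases Fap and Ctsk did not pass in any comparison. Itga2 differed by -1.26 (adjusted p = 0.313) and Itga1 by 0.99 (adjusted p = 0.338) in BPB. Fap differed by -0.85 (adjusted p = 0.119) and Ctsk by -1.06 (adjusted p = 0.343).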

How the data were processed

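RNA from 9 uterus samples was sequenced as poly(A) libraries with a stranded kit. The authors deposited 1 table of FPKM values per library. The unit was read from the values and their steps, since no source used here names the aligner, genome build, annotation or counting method. Of 34745 lines per table, 126 with repeated symbols were left out. Genes with at least 1 FPKM in 3 libraries were tested on log2(FPKM + 1), pseudocount 1, with limma 3.58.1 (trend and robust variance, R 4.3.3), all groups in 1 fit, and Benjamini-Hochberg adjustment. A log2 difference on this scale understates changes of low genes. Read totals came from the step size of low values, whole within 0.01 of a read for 83.6% to 86.1% of values of genes with 1 transcript, and reads could be recovered for 39 of the 44 collagen genes. They show depth and were not tested, as FPKM is not a count. Genes named were those called, the 8 with the highest mean, the 5 with the smallest p per comparison and up to 6 per comparison without overlap. The members, lists and rules were chosen with earlier results of these data known. Same-numbered BPB and BPAF libraries deviated together from their group means (correlations 0.34, 0.34 and 0.48), while those of control with BPB (-0.37, -0.13 and -0.40) and with BPAF (-0.16, -0.08 and -0.25) did not. A full matching across different numbers reached similar correlations: control 1 with BPB 2 (0.33), control 2 with BPB 3 (0.37) and control 3 with BPB 1 (0.45). The correlations therefore cannot show whether the numbers pair samples, and the labels give no pairing. Alternatives covered pseudocount, filter, scaling, variance model, block, threshold and leaving out each library.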

Additional observations from a re-analysis of the deposited data

How the results depend on the processing

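Over 971 alternative values of the 17 named collagen genes, 949 stayed on their side of the threshold, 9 lost a call and 13 gained one. Only 1 of the 51 results behind these values was called, Col17a1 in BPB against control, so most values had no call to lose. All 9 losses were among the 18 alternatives of that call. Of the values of differences not called, 8 changed sign. The count of collagen genes called in BPB against control (1) went to 0 with a pseudocount of 0.1 or 0.01, with no filter and with the replicate block. It was also 0 with 1 FPKM required in all 9 libraries, a filter that removes Col17a1 before the test. The count was 2 with median-ratio scaling or a threshold of 0.1, 0 to 3 when 1 library was left out, and 7 without control 3 and BPAF 1. In BPAF against control (0) it was 0 to 2 with 1 library left out, at 2 without control 3. In BPAF against BPB (0) it was 0 to 1, and 2 without control 3 and BPAF 1. In the joint test (0) it was 1 with median-ratio scaling, 2 at a threshold of 0.1, 0 to 2 with 1 library left out, and 6 without control 3 and BPAF 1. Calls over all 13743 tested genes moved too, so these moves and those of the pathway genes below are not shown to be particular to collagen. With 1 library left out, all calls numbered 1 to 221 for BPB and 1 to 10 for BPAF against control. They numbered 0 to 234 for BPAF against BPB and 0 to 310 in the joint test. The main fit called 351, 3, 33 and 116. The collagen median ranged from -0.82 (without control 3, with or without BPAF 1) to 0.13 (without control 2) for BPB, main value -0.27, and from -1.27 (without control 3, likewise) to -0.23 for BPAF, main value -0.65. Median-ratio scaling moved the median of all genes from 0.15 and 0.21 to 0 for BPB and BPAF.

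The 2 pathway genes called in BPB against control became 1 with the replicate block or equal FPKM sums, 5 at a threshold of 0.1 and 0 to 3 with 1 library left out. For BPAF against control (0) the count was 0 to 1 with 1 library left out. For BPAF against BPB (0) it was 1 with median-ratio scaling or a threshold of 0.1, 0 to 1 with 1 library left out, and 2 without control 3 and BPAF 1. In the joint test (2) it was 0 with a pseudocount of 0.1 or 0.01, with 1 FPKM in all 9 libraries or with the replicate block, 1 with no filter, with equal sums without mitochondrial genes or with equal FPKM sums, 0 to 3 with 1 library left out, and 5 without control 3 and BPAF 1. The block changed no collagen call in BPAF against BPB, where there was none to lose. It took the calls over all genes there from 33 to 0. No label gives a pairing by number, the correlations cannot show one, and the main fit did not use it. In the comparisons with control, the block took the calls over all genes from 351 to 19 and from 3 to 0. The causes of these moves were not tested. The 3 libraries per group limit precision, and fits without 1 library rest on 2 in that group.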
